A study of Mus musculus with 21 samples.

Results

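The interaction of Wnt1 with C2mE in the mouse glandular stomach was measured as the difference between 2 responses, the C2mE response beside Wnt1 (K19-Wnt1/C2mE minus K19-Wnt1) and the C2mE response without Wnt1 (K19-C2mE minus wild-type). It rests on 16 of the 21 arrays of the series, 1 array per mouse, from 5 K19-Wnt1/C2mE, 5 K19-Wnt1, 3 K19-C2mE and 3 wild-type mice. The remaining 5 arrays came from K19-Nog/C2mE and K19-Nog mice and were used for the shared estimate of the spread and for a single comparison. Genes entered by this contrast alone, with no selection on their values, and 267 of the 18193 genes measured (1.47%) passed a limma adjusted p of 0.05.

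All mice were labelled C57BL/6 and female, aged 18 to 65 weeks, with no age given for a single mouse. The K19 (keratin 19) promoter directs each transgene to the stomach epithelium. K19-Wnt1/C2mE mice are compound transgenics that carry Wnt1 together with COX-2 and mPGES-1, the 2 enzymes denoted C2mE. K19-Wnt1 mice carry Wnt1 alone, K19-C2mE mice carry COX-2 and mPGES-1, and wild-type mice carry no transgene. All 16 samples were whole pieces of glandular stomach, so that fewer cells of a type and less RNA per cell cannot be told apart in any value below.

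Wnt ligands bind Frizzled receptors and stabilise beta-catenin, which acts with T-cell factors on target genes such as Axin2, and in the gut this pathway maintains epithelial stem cells. COX-2 and mPGES-1 act in sequence to make prostaglandin E2, a lipid mediator of inflammation and epithelial growth. Interferons form a separate system, in which a secreted ligand engages a receptor and its Jak kinases, Stat and Irf factors then enter the nucleus, and a large set of interferon-stimulated genes with antiviral and antigen-presenting functions is switched on.

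The 16 arrays had median intensities between 65.96 and 68.73, and replicates of a genotype correlated at 0.985 to 0.996. Ptgs2, which encodes COX-2, was 2.34 higher on the log2 scale in K19-Wnt1/C2mE than in K19-Wnt1 mice (adjusted p = 1.39e-08) and 2.27 higher in K19-C2mE than in wild-type mice (adjusted p = 2.11e-06), and its interaction was 0.06 ± 0.32 (SE). A second, dimmer Ptgs2 probe set gave 1.57 (adjusted p = 0.0938) and 0.35 (adjusted p = 0.835) in these comparisons. None of the 3 probe sets of Ptges, which encodes mPGES-1, passed in either, with 0.20 to 0.35 beside Wnt1 and −0.01 to 0.26 without it. The probe set of Wnt1 differed by 0.07 between K19-Wnt1 and wild-type mice (adjusted p = 0.958) and by −0.21 between K19-Wnt1/C2mE and K19-C2mE mice (adjusted p = 0.365), and it is not known here whether this probe set lies within the transgene. The study states that each introduced gene was raised in its transgenic mice, as in its earlier reports, which these Wnt1 and Ptges values do not show. Despite the labels, Y-linked genes were at a high level in 1 of 5 K19-Wnt1/C2mE, 4 of 5 K19-Wnt1, 2 of 3 K19-C2mE and 2 of 3 wild-type mice. Squamous genes of the forestomach also differed, with list medians of 6.19 to 9.57 in K19-Wnt1/C2mE, 5.79 to 5.99 in K19-Wnt1, 8.65 to 11.04 in K19-C2mE and 5.84 to 7.64 in wild-type mice. Each of these measures was entered into the model as a covariate. Of the 72 called genes named below, 43 passed with the Y-linked level and 28 with the squamous level, and 24 passed with each, which were Abca5, Abo, Adar, Ascl2, Chpt1, Ddx60, Dhx58, Etv4, Ifih1, Ifit1, Ifit1bl1, Lmcd1, Lypd8, Ngfr, Oas1a, Oas2, Oasl2, Parp12, Prr18, Rtp4, Urod, Usp18, Usp22 and Xaf1. The other 48 called genes named did not pass with at least 1 of the covariates, and the part of squamous tissue and of sex in them was not tested further.

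At the level of probe sets 311 of 45037 passed (0.691%), 193 lower (0.429%) and 118 higher (0.262%). Of the 267 genes, 172 had a lower C2mE response beside Wnt1 (0.945% of all genes) and 95 a higher one (0.522%). The lower genes included interferon-stimulated genes such as Ddx60 and Ifit1 and the BMP ligand Bmp2, and the higher genes included the Wnt targets Ascl2, Axin2 and Ephb3. The median interaction was −0.99 among the 172 lower genes and 0.76 among the 95 higher genes, against 0.01 over all genes. An absolute interaction of at least 1 was reached by 85 lower and 25 higher genes. At an unadjusted p under 0.05 the contrast held 2406 genes (13.2%). The last genes inside the threshold were Nipsnap1 (0.82), Psapl1 (−2.50) and Nadsyn1 (0.50), and the first outside it were Wfdc18 (3.42), Hsd17b12 (−0.46) and Vps8 (0.38).

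The 267 genes differed in the form of their interaction. In 95 of them (35.6%) the mean was higher in K19-C2mE than in wild-type mice but lower in K19-Wnt1/C2mE than in K19-Wnt1 mice. A rise that was larger beside Wnt1 was seen in 60 genes, a fall that was larger beside Wnt1 in 50, and a fall without Wnt1 that became a rise beside it in 30. In the remaining genes the C2mE rise (27 genes) or fall (5 genes) was smaller beside Wnt1. The components covered many more genes, with 8124 between K19-Wnt1/C2mE and K19-Wnt1 mice (44.7%), 5298 between K19-C2mE and wild-type mice (29.1%), 1425 between K19-Wnt1/C2mE and K19-C2mE mice (7.83%) and 2 between K19-Wnt1 and wild-type mice (0.011%). The contrast takes its values from the same 16 arrays as these components, so that the components describe its form and are no separate evidence.

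**Figure D1:**
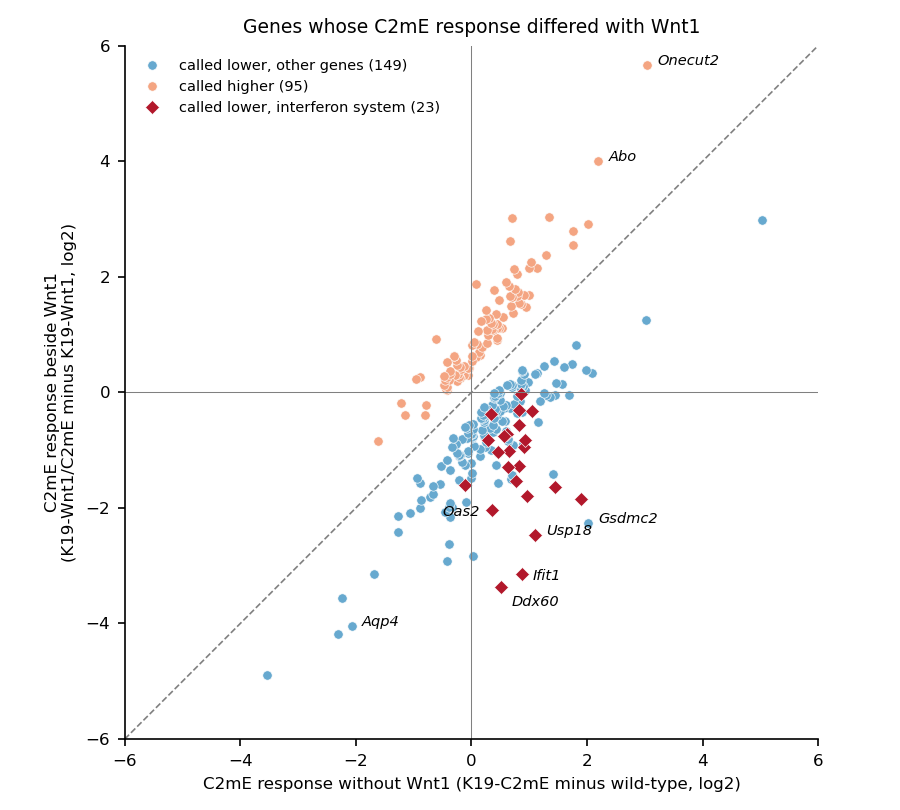
C2mE response without Wnt1 (K19-C2mE minus wild-type, log2, horizontal axis) and beside Wnt1 (K19-Wnt1/C2mE minus K19-Wnt1, log2, vertical axis) for the 267 genes that passed the test, where the dashed line marks equal responses. Points below the line are the 172 genes with a lower response beside Wnt1, and the 23 interferon system genes among them (diamonds) lie mostly right of 0 on the horizontal axis and below 0 on the vertical one.

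The count depended on single arrays. The number of genes passing was 71 without wild-type replicate 1, 139 without wild-type replicate 2 and 77 without wild-type replicate 3. It was 166, 171, 175 and 177 without K19-Wnt1 replicates 2, 4, 5 and 6, and 134, 460 and 106 without K19-C2mE replicates 1, 2 and 3. Without any single K19-Wnt1/C2mE array, or without K19-Wnt1 replicate 1, it stayed between 191 and 337. In 94 of the 172 lower genes all 5 K19-Wnt1/C2mE arrays lay below the other 11 arrays, a separation that 2.92% of all genes showed. In 69 of the 95 higher genes they all lay above, as in 3.45% of all genes. The called genes were selected on these same arrays, so their larger shares are no separate evidence.

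Interferon genes had, by the median of a list, a negative C2mE response beside Wnt1 and a positive one without it. The array medians of a list of interferon response and class I antigen presentation genes were 7.29 to 7.72 in K19-Wnt1/C2mE mice, 7.80 to 8.50 in K19-Wnt1 mice, 8.01 to 8.55 in K19-C2mE mice and 7.38 to 7.75 in wild-type mice, so that the compound mice overlapped the wild-type mice and both single genotypes lay above them. Among the 48 measured genes of the list, 13 passed as lower (27.1%) and none as higher, against 0.945% and 0.522% of all genes. The list's median interaction was −0.94, and 47 of its 48 members were negative. The list's median C2mE response was −0.56 beside Wnt1 and 0.56 without Wnt1, and K19-Wnt1 minus wild-type gave 0.45. Beside Wnt1 20 of the 48 passed as lower and 3 as higher, where 44.7% of all genes passed in either direction. Without Wnt1 15 passed as higher and 1 as lower, where 29.1% of all genes passed. None passed between K19-Wnt1 and wild-type mice, which is near the share of all genes (0.011%). For 9 of the 48 genes every K19-Wnt1/C2mE array lay below the other 11, a separation shown by 2.92% of all genes.

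Ddx60 encodes a helicase that assists the sensing of viral RNA, and it had the smallest p of all genes. Its log2 level was 5.04, 5.43, 4.85, 5.42 and 5.09 in K19-Wnt1/C2mE mice, against 8.60, 8.94, 8.71, 8.56 and 7.92 in K19-Wnt1 mice. In K19-C2mE mice it was 8.86, 7.47 and 8.13, against 8.08, 7.40 and 7.43 in wild-type mice. The K19-Wnt1/C2mE arrays lay apart from all others, with no overlap, while the K19-C2mE and wild-type arrays overlapped. The interaction was −3.89 ± 0.36 (SE, limma adjusted p = 3.30e-05), composed of a C2mE difference of −3.38 beside Wnt1 and of 0.51 without it. A second, dimmer probe set of Ddx60 gave −1.31.

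Ifit1 binds foreign RNA that lacks the methylation of host messages. Its log2 level was 4.58, 4.66, 5.17, 5.58 and 5.63 in K19-Wnt1/C2mE mice, against 8.43, 8.78, 8.60, 8.41 and 7.13 in K19-Wnt1 mice. K19-C2mE mice had 8.58, 7.43 and 7.65, and wild-type mice had 7.39, 7.50 and 6.17. All 5 K19-Wnt1/C2mE arrays were below the lowest array of any other genotype, and a single K19-Wnt1 mouse, replicate 6, was clearly below its group. The interaction was −4.01 ± 0.57 (adjusted p = 0.00151). Of its measured relatives Ifit1bl1 (−3.73 ± 0.64, adjusted p = 0.00637) and Ifit3 (−2.10 ± 0.43, adjusted p = 0.0193) passed, and Ifit2 did not (−0.28 ± 0.43, adjusted p = 0.865).

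Usp18 removes the ubiquitin-like ISG15 protein from its targets and dampens signalling at the interferon receptor. Its log2 level was 5.16, 5.96, 6.04, 6.58 and 6.04 in K19-Wnt1/C2mE mice, against 8.49, 8.81, 8.31, 8.77 and 7.76 in K19-Wnt1 mice. It was 8.82, 8.14 and 8.33 in K19-C2mE mice, against 7.74, 7.55 and 6.69 in wild-type mice. Here the 3 K19-C2mE arrays were all above the wild-type arrays, and the 5 K19-Wnt1/C2mE arrays were all below them. The interaction was −3.58 ± 0.44 (adjusted p = 0.000618).

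Among the oligoadenylate synthetases, which make the messenger that activates RNase L, 4 genes passed as lower. Oas2 had log2 levels of 7.06, 7.20, 7.10, 7.50 and 7.21 in K19-Wnt1/C2mE mice, against 9.25, 9.55, 9.09, 9.51 and 8.81 in K19-Wnt1 mice. In K19-C2mE mice Oas2 was at 9.02, 8.64 and 8.38, and in wild-type mice at 8.70, 7.98 and 8.27. Again no K19-Wnt1/C2mE array reached another genotype, and its interaction was −2.39 ± 0.26 (adjusted p = 0.000303). Oasl2 (−3.08, adjusted p = 0.00275), Oas1a (−1.86, adjusted p = 0.00275) and Oas3 (−1.49, adjusted p = 0.0193) passed as well.

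Rtp4, an interferon-induced chaperone of membrane receptors, was at 7.18, 7.57, 8.05, 8.02 and 7.68 in K19-Wnt1/C2mE mice, against 9.87, 9.91, 9.20, 9.56 and 8.96 in K19-Wnt1 mice. K19-C2mE mice had 9.99, 9.45 and 9.45, against 8.96, 8.70 and 8.36 in wild-type mice. The groups were ordered as for Usp18, and the interaction was −2.75 ± 0.35 (adjusted p = 0.000812). Mx1, a GTPase that blocks influenza virus, reached −2.31 (adjusted p = 0.0147), and Xaf1, a partner of the apoptosis inhibitor XIAP, reached −1.92 (adjusted p = 0.00275), although its second, dim probe set gave −0.23. Mx1 did not pass without wild-type replicate 1 or 3 (−2.29 and −2.16), nor did Ifit3 without wild-type replicates 1 or 3 or K19-C2mE replicate 1 (−2.12 to −1.82) or Oas3 without any 1 of the wild-type arrays (−1.52 to −1.43). With the squamous level in the model these 3 genes did not pass either (−2.16, −2.12 and −1.49, adjusted p = 0.0624, 0.0624 and 0.0627). Ddx60, Ifit1, Ifit1bl1, Usp18, Oas1a, Oas2, Oasl2, Rtp4 and Xaf1 passed without each of the 16 arrays in turn.

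**Figure D2:**
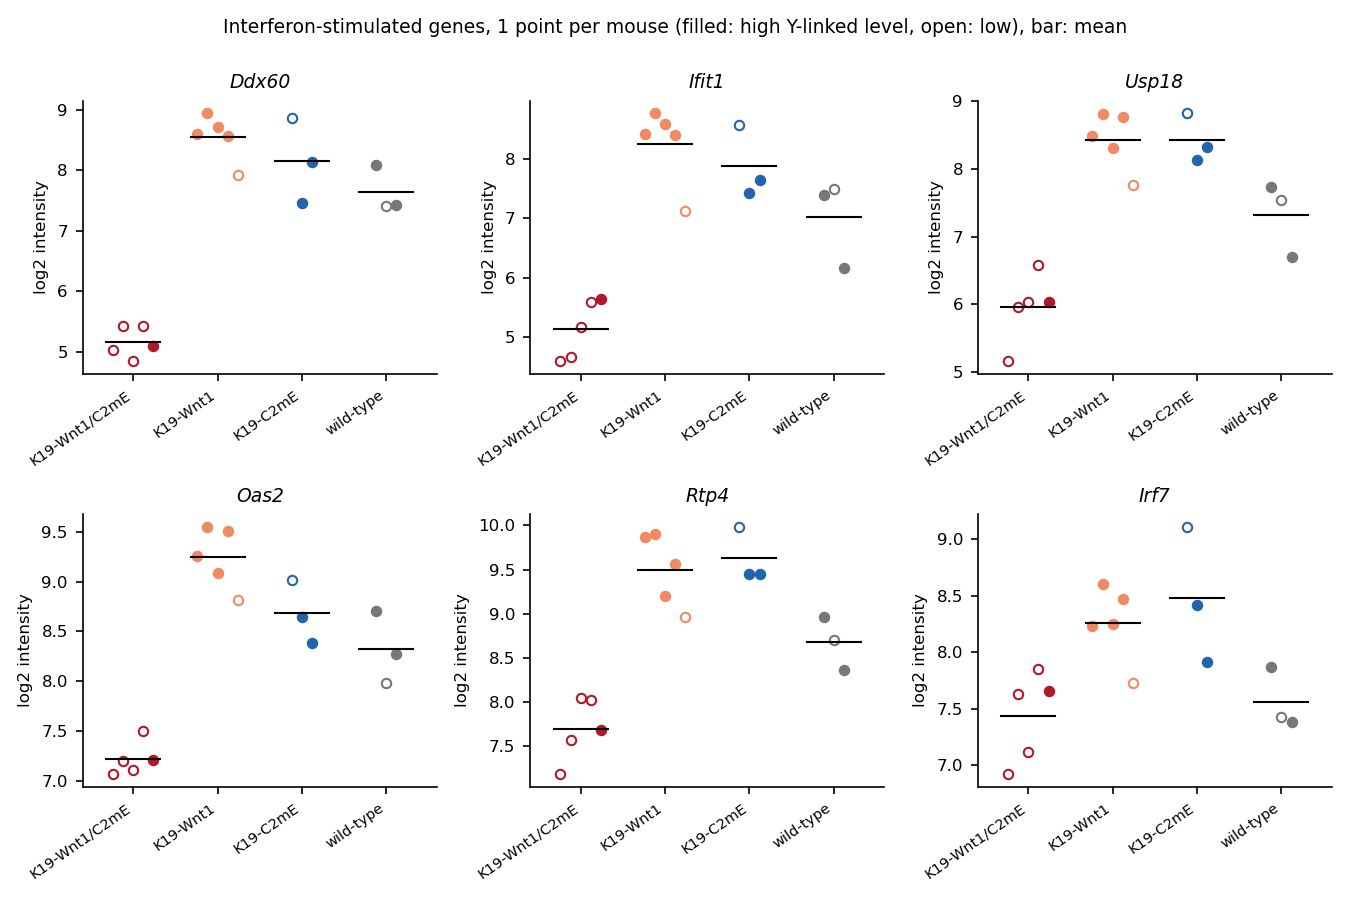
Log2 intensity (vertical axes) of 6 interferon-stimulated genes by genotype, with a point for each mouse, filled where Y-linked genes were high and open where they were low, and a bar for the mean. For Ddx60, Ifit1, Usp18, Oas2 and Rtp4 the 5 K19-Wnt1/C2mE mice lie below every mouse of the other 3 genotypes, and for Irf7 they overlap the wild-type mice.

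To describe the system step by step, 97 measured genes were sorted by role. This sorting was made after the values had been seen and is a description only. None of the 10 interferon genes passed, but their probe sets were dim, with mean log2 levels of 3.57 to 6.08, at which a change may not be measurable. The 9 receptor and Jak kinase genes, at mean levels of 7.46 to 10.21, gave no call either, with interactions between −0.14 and 0.29. Of the 11 nucleic acid sensors and adaptors 3 passed as lower, of the 9 transcription factors 2, and of the 32 antiviral effectors and feedback genes 18. Over all genes 0.945% passed as lower, so no call among 9 or 10 genes is near that share. No gene of any role passed as higher.

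The median interaction was −1.23 among the antiviral effectors, −0.42 among the sensors, −0.16 among the transcription factors and 0.10 among the receptors and kinases. The 26 genes sorted as GTPases and antigen presentation, which include the chemokine Cxcl10 (−0.03), were all negative with a median of −0.67. None of them passed, against 0.945% of all genes called lower. Among these Gbp2, a guanylate-binding protein, had log2 levels of 6.69, 6.48, 6.23, 6.69 and 6.64 in K19-Wnt1/C2mE mice, against 9.97, 8.40, 8.11, 8.11 and 7.91 in K19-Wnt1 mice. K19-C2mE mice had 8.53, 7.38 and 7.98, and wild-type mice 7.61, 7.78 and 7.35. Its K19-Wnt1/C2mE arrays were thus below all others, while its interaction of −2.34 ± 0.88 did not pass (adjusted p = 0.228), with 1 K19-Wnt1 array far above the rest of its group.

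**Figure D3:**
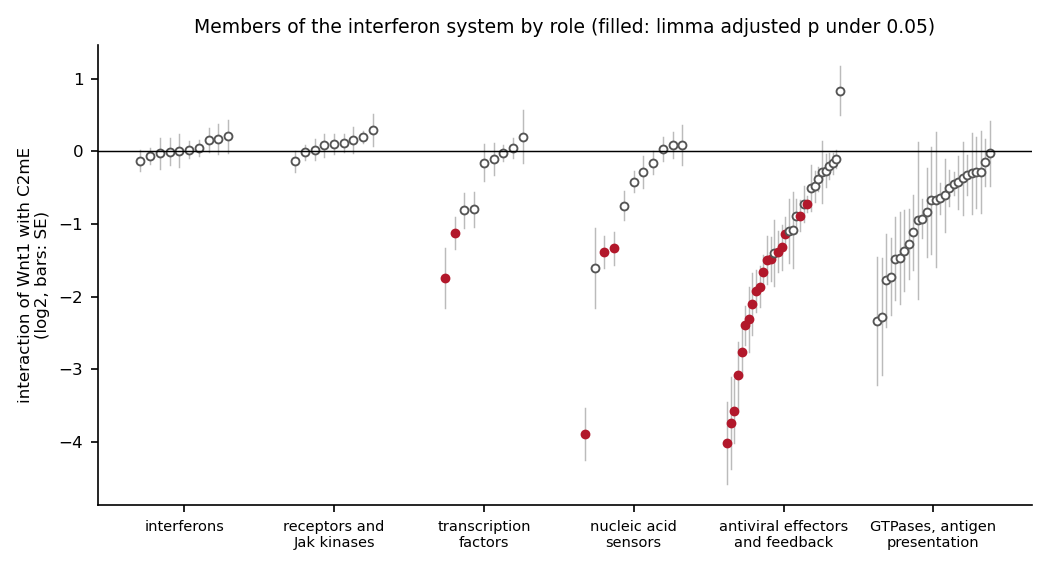
Interaction of Wnt1 with C2mE (log2, vertical axis) with its standard error for 97 interferon system genes, grouped by role along the horizontal axis and ordered by value within a role, with filled points for genes that passed the test. Antiviral effectors reach −4.01, receptors and kinases lie between −0.14 and 0.29, and the interferons were read from dim probe sets of mean log2 level 3.57 to 6.08.

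The 2 transcription factors that passed were Irf7, which drives the second wave of alpha-interferon, and Stat2, a subunit of the factor that interferon receptors activate. Irf7 was at 6.92, 7.63, 7.12, 7.85 and 7.65 in K19-Wnt1/C2mE mice, against 8.23, 8.60, 8.25, 8.47 and 7.73 in K19-Wnt1 mice. In K19-C2mE mice it was at 9.11, 8.42 and 7.91, against 7.87, 7.43 and 7.38 in wild-type mice. The K19-Wnt1/C2mE and wild-type arrays overlapped, and the interaction of −1.74 ± 0.41 was close to the threshold (adjusted p = 0.0406) and was lost without any 1 of 10 of the 16 arrays (−1.90 to −1.43). Those were the 3 wild-type arrays, K19-Wnt1 replicates 1, 2, 4 and 5, K19-C2mE replicate 1 and K19-Wnt1/C2mE replicates 1 and 3. Irf7 also did not pass with the Y-linked (adjusted p = 0.0849) or the squamous level (adjusted p = 0.101) in the model.

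Stat2 was at 6.59, 6.83, 6.97, 7.11 and 7.20 in K19-Wnt1/C2mE mice, against 7.54, 7.71, 7.92, 8.07 and 7.61 in K19-Wnt1 mice. K19-C2mE mice had 7.85, 7.17 and 7.47, and wild-type mice 7.18, 7.22 and 7.22. The interaction was −1.12 ± 0.22 (adjusted p = 0.0174), and a second probe set gave −0.93. It did not pass without wild-type replicate 1 or 3 or K19-C2mE replicate 1 (−1.13 to −0.94), nor with the squamous level in the model (−1.04, adjusted p = 0.071). The sensors beside Ddx60 were Ifih1 (−1.38, adjusted p = 0.00349), which detects long double-stranded RNA, and Dhx58 (−1.34, adjusted p = 0.00598), its regulator, for which the 2 dimmer probe sets gave −0.19 and −0.92. Both kept their calls without each array. Among the effectors Parp12 (−1.66) and the RNA-editing enzyme Adar (−0.72, adjusted p = 0.0022) also kept theirs. The nucleotide kinase Cmpk2 (−1.50), Trim30a (−1.32) and Parp9 (−0.88) lost theirs without 9 to 12 of the arrays. Ifi27 (−1.11), which was not among the genes sorted by role, lost its call without 11 of the arrays. The effectors Parp14 (−1.38) and Trim12a (−1.13) lost their calls without wild-type replicate 1 or 3 or K19-C2mE replicate 1.

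The promoters of 4 called interferon genes are shown because each holds 2 copies of a sequence that the contrast did not use, the interferon-stimulated response element. It was searched on both strands as the letters GAAA, any 2 bases, and GAAA again. Windows ran from 250 bases before to 50 bases after each start site in RefSeq GRCm38.p6, 300 bases in all, and 14452 of the 18193 genes had one. In Ifit1 (chr19:34640639-34640938, plus strand) matches began at −104 and −85 from the start site, in Ddx60 (chr8:61927837-61928136, plus strand) at −53 and −19, in Ifit3 (chr19:34583279-34583578, plus strand) at −156 and −122, and in Oas1a (chr5:120907476-120907775, minus strand) at −20 and −14, where both overlap. Capitals mark the matches, and those written as TTTC lie on the opposite strand.
Ifit1: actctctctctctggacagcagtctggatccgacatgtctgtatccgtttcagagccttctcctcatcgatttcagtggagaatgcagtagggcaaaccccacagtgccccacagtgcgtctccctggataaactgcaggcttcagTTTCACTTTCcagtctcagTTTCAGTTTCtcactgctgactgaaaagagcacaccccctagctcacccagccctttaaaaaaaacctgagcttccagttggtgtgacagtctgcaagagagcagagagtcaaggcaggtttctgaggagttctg
Ddx60: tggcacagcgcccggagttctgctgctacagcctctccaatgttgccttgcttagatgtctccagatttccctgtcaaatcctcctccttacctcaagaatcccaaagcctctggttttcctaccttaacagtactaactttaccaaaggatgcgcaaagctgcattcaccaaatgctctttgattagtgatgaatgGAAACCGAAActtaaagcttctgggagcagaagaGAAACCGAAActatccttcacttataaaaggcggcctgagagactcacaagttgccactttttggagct
Ifit3: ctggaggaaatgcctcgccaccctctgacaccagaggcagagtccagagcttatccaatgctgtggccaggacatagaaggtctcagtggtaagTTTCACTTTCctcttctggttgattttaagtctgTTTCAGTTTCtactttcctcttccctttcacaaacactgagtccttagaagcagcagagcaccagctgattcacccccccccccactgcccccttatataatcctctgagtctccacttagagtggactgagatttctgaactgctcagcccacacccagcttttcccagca
Oas1a: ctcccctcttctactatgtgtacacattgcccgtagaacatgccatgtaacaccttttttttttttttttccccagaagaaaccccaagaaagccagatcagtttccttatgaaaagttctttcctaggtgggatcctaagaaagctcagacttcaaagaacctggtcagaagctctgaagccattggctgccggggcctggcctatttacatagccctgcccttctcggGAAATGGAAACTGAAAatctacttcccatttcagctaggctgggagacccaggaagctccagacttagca
In all, 10 of the 16 called interferon system genes with a window held a match (62.5%), and Adar, Cmpk2, Irf7, Oasl2, Parp12 and Xaf1 held none, against 524 of all 14452 genes (3.63%). Among the other called lower genes 8 of 105 had one (7.62%), and among the called higher genes 1 of 74 (1.35%). The share was 23 of 62 (37.1%) among interferon system genes that did not pass, and 8 of 19 (42.1%) among the GTPases and antigen presentation genes. The interferon system genes were chosen by their known role after the values had been seen, so their larger share is no separate evidence. A match describes the letters in these windows and no binding was measured.

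The Y-linked and squamous levels moved with the groups, so the interferon values were computed with each. With the Y-linked level in the model the list's median was −0.93 and 11 of its genes passed, and with the squamous level it was −1.02 and 7 passed. Within the arrays of high Y-linked level the median was −0.81, and within those of low level −0.99. These strata hold only 1 K19-Wnt1/C2mE mouse at the high level and only 1 K19-Wnt1, 1 K19-C2mE and 1 wild-type mouse at the low level, and such a lone mouse is assumed to vary like the other groups. Under that assumption Ddx60 gave −3.65 (adjusted p = 0.00153) in the high stratum and −4.19 (adjusted p = 0.00265) in the low one, and Ifit1 gave −3.69 and −3.21 and did not pass in either. The list passed 7 genes without wild-type replicate 1, 7 without wild-type replicate 3, and 9 to 14 without each other array.

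**Figure D4:**
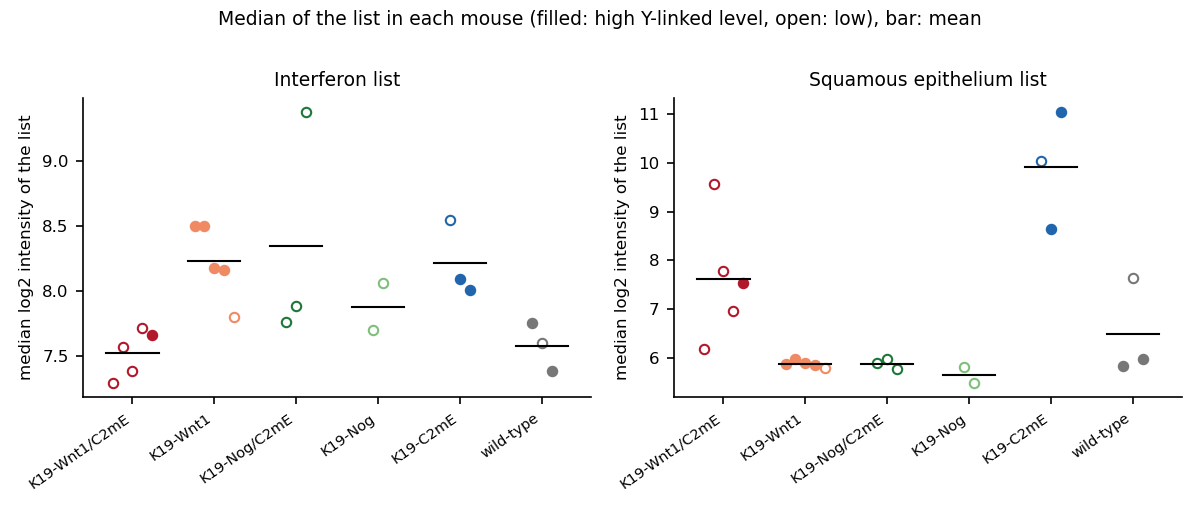
Median log2 intensity (vertical axes) of the interferon list (left) and of the squamous list (right) in each mouse of the 6 genotypes, filled where Y-linked genes were high and open where they were low, with a bar for the mean. Interferon medians were 7.29 to 7.72 in K19-Wnt1/C2mE, 7.80 to 8.50 in K19-Wnt1, 8.01 to 8.55 in K19-C2mE and 7.38 to 7.75 in wild-type mice, and squamous medians were 8.65 to 11.04 in K19-C2mE mice, against 5.84 to 7.64 in wild-type mice.

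The same genes could be set against the C2mE response beside Nog (K19-Nog/C2mE minus K19-Nog), which uses neither wild-type nor K19-C2mE arrays but shares the K19-Wnt1/C2mE and K19-Wnt1 arrays with the interaction. The response beside Wnt1 differed from that beside Nog in 891 genes (4.9%), 569 higher (3.13%) and 322 lower (1.77%). This count was 292 and 389 without K19-Nog replicates 1 and 2, and 490 and 1374 without K19-Nog/C2mE replicates 1 and 3. Since both contrasts hold the same difference of K19-Wnt1/C2mE and K19-Wnt1 mice, the values that follow are no separate evidence. The difference was −3.47 for Ddx60 (adjusted p = 5.73e-05), −3.07 for Ifit1 (adjusted p = 0.00597) and −1.86 for Oas2 (adjusted p = 0.00084). Of the 48 genes of the interferon list 11 passed as lower, with a median of −0.97. The interaction of Nog with C2mE passed in 219 genes (1.2%), in none of the 48, whose median was −0.05. No call among 48 is near that share. That contrast shares the wild-type and K19-C2mE arrays with the interaction of Wnt1 and rests on only 2 K19-Nog mice.

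Wnt target genes gave a small number of calls, all of them higher. Of 47 measured Wnt target and stem cell genes 4 passed (8.51%, against 0.522% of all genes), namely Ascl2, Axin2, Ephb3 and Slc12a2, while the median of the list was 0.00 and 23 of its genes were negative. Ascl2 and Ephb3 also passed with the Y-linked level in the model, and Ascl2 and Slc12a2 with the squamous level. None of the 4 passed between K19-Wnt1 and wild-type mice, where the differences were −0.24, 0.08, 0.20 and −0.04. In that comparison 2 of all 18193 genes passed (0.011%), so no call among these 4 is near that share. Among 75 components of the Wnt pathway Fzd8, a receptor (0.48), passed as higher and Tle4, a corepressor of T-cell factors (−0.68), as lower, and the median was −0.01. These were 2.67% of the list, against 1.47% of all genes. Both calls were near the threshold (adjusted p = 0.0351 and 0.0425) and were lost without 11 and 14 of the 16 arrays.

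Ascl2, a transcription factor of intestinal stem cells, had log2 levels of 7.42, 8.07, 7.64, 8.37 and 7.86 in K19-Wnt1/C2mE mice, against 6.31, 6.36, 6.00, 5.93 and 5.88 in K19-Wnt1 mice. In K19-C2mE mice it was at 6.51, 6.78 and 6.85, and in wild-type mice at 6.03, 6.43 and 6.53. The K19-Wnt1/C2mE arrays stood above all others. The interaction was 1.39 ± 0.26 (adjusted p = 0.0113). Among the arrays left out in turn, its call was lost without wild-type replicate 3 (1.29), and its dimmer probe sets gave 1.72 and 1.38.

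Axin2, a feedback inhibitor of the pathway and a common readout of its activity, was at 7.29, 7.55, 7.31, 8.04 and 7.74 in K19-Wnt1/C2mE mice, against 6.80, 6.77, 7.01, 7.15 and 7.05 in K19-Wnt1 mice. K19-C2mE mice had 6.69, 6.35 and 6.69, against 6.88, 6.79 and 6.94 in wild-type mice. The K19-C2mE arrays were thus below the wild-type arrays, and the K19-Wnt1/C2mE arrays above the K19-Wnt1 arrays. The differences were −0.29 (adjusted p = 0.182) without Wnt1 and 0.63 (adjusted p = 0.000388) beside it, and the interaction was 0.92 ± 0.20 (adjusted p = 0.0288). It did not pass without any 1 of the wild-type arrays, K19-Wnt1 replicate 2 or K19-C2mE replicate 3 (0.88 to 0.98), nor with the Y-linked or squamous level in the model (0.93 and 0.96, adjusted p = 0.055 and 0.0702).

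Ephb3, a receptor that positions cells along intestinal crypts, was at 10.47, 10.86, 10.68, 10.80 and 11.13 in K19-Wnt1/C2mE mice, against 8.84, 9.16, 9.28, 9.25 and 9.06 in K19-Wnt1 mice. It was at 9.68, 9.88 and 9.56 in K19-C2mE mice, against 8.96, 8.95 and 8.86 in wild-type mice. Ephb3 was therefore higher with C2mE in both settings, by 1.67 beside Wnt1 and by 0.79 without it, and the interaction was 0.88 ± 0.19 (adjusted p = 0.027). Without any 1 of the wild-type arrays or of K19-C2mE replicates 1 and 3 it did not pass (0.81 to 0.91), nor with the squamous level in the model (0.91, adjusted p = 0.0702). Slc12a2, a sodium, potassium and chloride cotransporter, had an interaction of 0.69 (adjusted p = 0.0252), which did not pass without any 1 of the wild-type arrays or K19-C2mE replicate 3 (0.64 to 0.69), nor with the Y-linked level in the model (0.62, adjusted p = 0.0645).

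Of 53 genes of the TGF-beta and BMP pathways 3 passed as higher and 1 as lower (7.55%, against 1.47% of all genes), with a list median of 0.05. With the squamous level in the model none of the 53 passed. Only 87 of all 18193 genes passed then, so no call among 53 is near that share. With the Y-linked level 2 of the 53 passed as higher and 1 as lower, beside 165 of all genes. Bmp2, a ligand that restrains the epithelial stem cell compartment in the gut, was at 8.80, 8.63, 8.81, 8.54 and 8.69 in K19-Wnt1/C2mE mice, against 9.71, 9.66, 9.53, 9.74 and 9.76 in K19-Wnt1 mice. K19-C2mE mice had 10.23, 9.68 and 9.88, and wild-type mice 9.81, 9.82 and 9.72. The K19-Wnt1/C2mE arrays lay below all others, and the other 3 genotypes overlapped. The interaction was −1.13 ± 0.22 (adjusted p = 0.0147). Its call was lost without wild-type replicate 3 (−1.10), and with the squamous level in the model (−1.08, adjusted p = 0.0598).

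Tgfbr2, the ligand-binding receptor of TGF-beta, was at 11.51, 11.39, 11.30, 11.54 and 11.57 in K19-Wnt1/C2mE mice, against 10.27, 10.32, 10.41, 10.48 and 10.39 in K19-Wnt1 mice. K19-C2mE mice had 10.52, 10.81 and 10.73, against 10.33, 10.29 and 10.37 in wild-type mice. The order of the groups was as for Ephb3, and the interaction was 0.73 ± 0.16 (adjusted p = 0.0264), lost without any 1 of the wild-type arrays or of K19-C2mE replicates 1 and 3 (0.65 to 0.75), and with the squamous level in the model (0.65, adjusted p = 0.104). Tgif1, a repressor of Smad targets, gave 1.07 (adjusted p = 0.0181, lost without wild-type replicate 1 or 3), and Smad5, a transducer of BMP signals, gave 0.46 (adjusted p = 0.0413, lost without 12 of the arrays).

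A list of 15 genes taken from those the study names gave interactions from −1.13 for Bmp2 to 0.76 for Porcn, the acyltransferase needed for Wnt secretion, and only Bmp2 and Tgfbr2 of these 15 passed. This was 13.3% of the list, against 1.47% of all genes. Porcn was at 8.49, 8.73, 8.11, 8.37 and 8.21 in K19-Wnt1/C2mE mice, against 7.15, 7.27, 7.57, 7.19 and 7.54 in K19-Wnt1 mice. It was at 7.77, 7.58 and 7.57 in K19-C2mE mice, against 7.13, 7.42 and 7.52 in wild-type mice. Although its K19-Wnt1/C2mE arrays were above all others, the interaction of 0.76 ± 0.19 missed the threshold (adjusted p = 0.0534). Smad3 gave 0.33 ± 0.12 (adjusted p = 0.18).

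**Figure D5:**
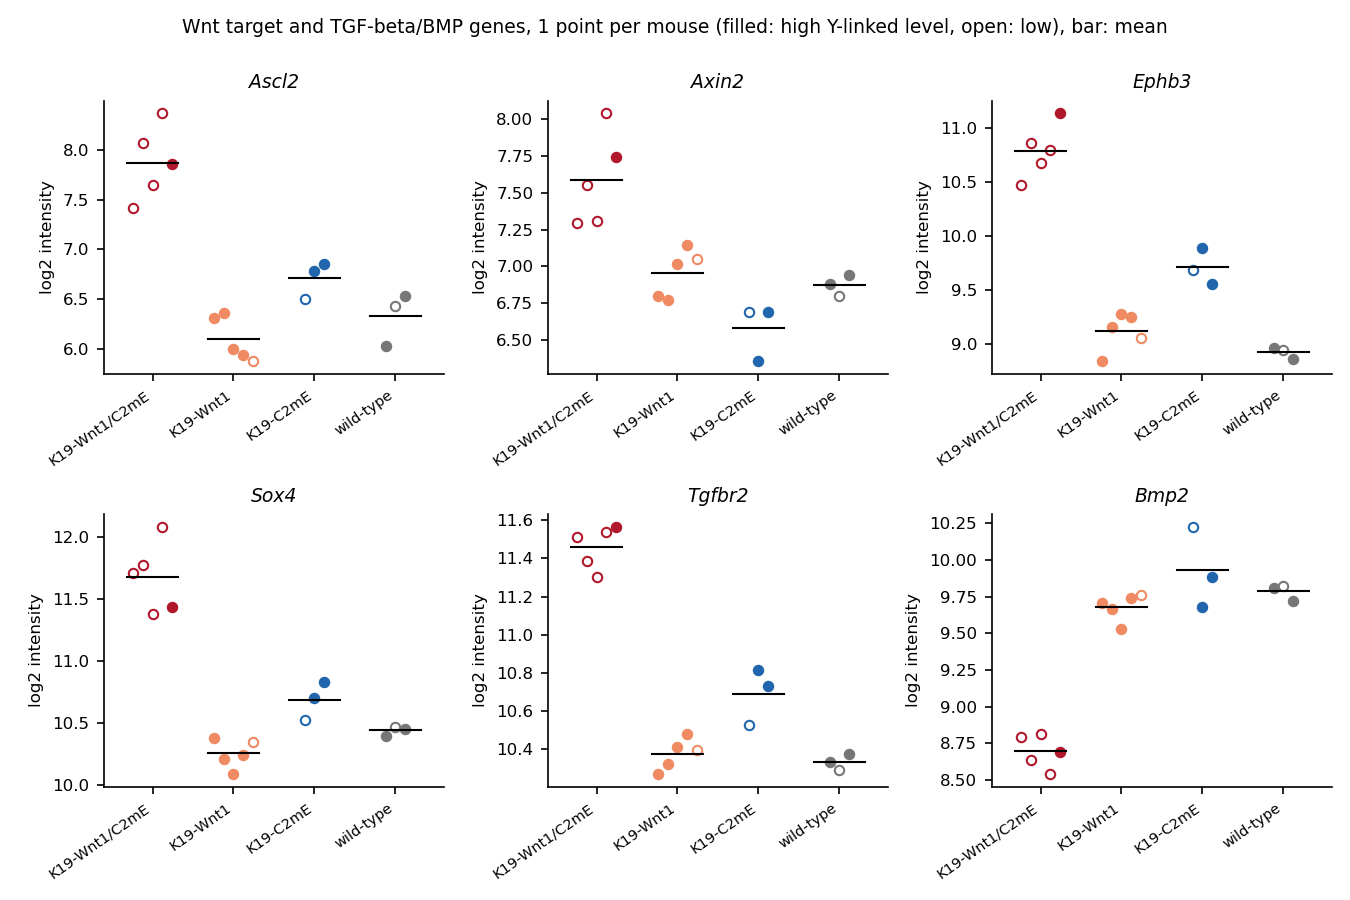
Log2 intensity (vertical axes) of Ascl2, Axin2, Ephb3, Sox4, Tgfbr2 and Bmp2 by genotype, with a point for each mouse, filled where Y-linked genes were high and open where they were low, and a bar for the mean. The 5 K19-Wnt1/C2mE mice lie above every mouse of the other 3 genotypes for the first 5 genes and below them for Bmp2.

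Sox4, a transcription factor of progenitor cells, was highest in the compound mice as well. It was at 11.71, 11.78, 11.38, 12.08 and 11.44 in K19-Wnt1/C2mE mice, against 10.38, 10.21, 10.09, 10.24 and 10.35 in K19-Wnt1 mice. In K19-C2mE mice it was at 10.53, 10.70 and 10.83, against 10.40, 10.47 and 10.46 in wild-type mice. The interaction was 1.17 ± 0.23 (adjusted p = 0.0181), with 0.96 to 1.31 in its 4 next brightest probe sets and −0.10 to 0.09 in its 3 dimmest. It did not pass without wild-type replicate 1 or 3 or K19-C2mE replicate 1 (1.09 to 1.20), nor with the squamous level in the model (1.15, adjusted p = 0.0646).

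Among the largest positive interactions, Onecut2, a transcription factor of endoderm, was at 10.63, 10.71, 9.44, 11.41 and 10.62 in K19-Wnt1/C2mE mice, against 5.14, 5.30, 5.05, 4.91 and 4.15 in K19-Wnt1 mice. It was at 7.95, 9.12 and 7.80 in K19-C2mE mice, against 5.54, 4.94 and 5.30 in wild-type mice. Onecut2 was thus high with C2mE in both settings, by 5.65 beside Wnt1 and by 3.03 without it, and the interaction was 2.62 ± 0.56 (adjusted p = 0.0235). It did not pass without wild-type replicates 1 or 3 or K19-C2mE replicates 1 or 3 (2.38 to 2.60), nor with the squamous level in the model (2.18, adjusted p = 0.104). Its C2mE response beside Wnt1 exceeded that beside Nog by 0.92 (adjusted p = 0.473).

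Abo, the glycosyltransferase that makes blood group antigens, was at 8.41, 8.77, 8.31, 8.48 and 8.27 in K19-Wnt1/C2mE mice, against 4.56, 4.92, 4.17, 4.35 and 4.22 in K19-Wnt1 mice. K19-C2mE mice had 6.48, 7.38 and 6.74, against 4.34, 5.30 and 4.37 in wild-type mice. The groups separated in the order seen for Onecut2, with an interaction of 1.81 ± 0.33 (adjusted p = 0.0102). Lmcd1, a LIM domain cofactor, was high in the compound mice. It was at 10.39, 9.46, 9.54, 8.90 and 8.97 in K19-Wnt1/C2mE mice, against 7.62, 7.61, 7.43, 7.78 and 7.47 in K19-Wnt1 mice. With 7.53, 8.02 and 8.06 in K19-C2mE mice, against 7.82, 7.82 and 7.72 in wild-type mice, its C2mE difference was 1.87 beside Wnt1 and 0.08 without it, and the interaction was 1.79 ± 0.32 (adjusted p = 0.00963).

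Abca5, a lipid transporter, was at 9.83, 10.17, 9.46, 9.80 and 9.96 in K19-Wnt1/C2mE mice, against 7.51, 7.80, 7.70, 7.85 and 7.69 in K19-Wnt1 mice. It was at 8.76, 8.68 and 8.42 in K19-C2mE mice, against 7.84, 7.85 and 7.99 in wild-type mice, so that no array of a C2mE genotype overlapped one without C2mE. The interaction was 1.41 ± 0.20 (adjusted p = 0.00151). Etv4, an Ets factor downstream of growth factor receptors, gave 0.83 (adjusted p = 0.00349), Urod, an enzyme of heme synthesis, 0.92 (adjusted p = 0.00275), and Usp22, a deubiquitinase of the SAGA complex, 0.59 (adjusted p = 0.00317). Second, dimmer probe sets gave 0.85 for Abca5, 0.43 for Etv4, 0.48 for Urod and 0.56 for Usp22. Abca5, Abo, Lmcd1, Etv4, Urod, Usp22 and Prr18 (1.69, adjusted p = 0.00581) passed without each array in turn.

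Further positive values were 2.31 for Acnat2, an enzyme that conjugates fatty acids (adjusted p = 0.0147), 1.96 for the tetraspanin Tspan12, 1.54 for the teneurin Tenm4 and 1.31 for Sh3rf1, a scaffold of Jnk signalling. Cdc14a, a phosphatase, gave 1.26, Tmem71 gave 1.23, Hsd11b2, which inactivates glucocorticoids, 1.19, and Lancl3 1.18. Ret, a receptor tyrosine kinase, reached 1.03, and 2 inhibitors of growth factor receptors, Errfi1 and Il17rd, reached 0.98 and 0.86. These calls were lost without 2 (Acnat2) to 14 (Tspan12) of the arrays.

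Outside the interferon system the lower genes included epithelial enzymes and transporters. The lower genes with the largest values are given here. Gsdmc2, a gasdermin of the gut epithelium, was at 5.22, 4.37, 5.47, 6.81 and 7.89 in K19-Wnt1/C2mE mice, against 8.36, 7.60, 8.43, 8.64 and 8.05 in K19-Wnt1 mice. It was at 10.27, 10.59 and 9.66 in K19-C2mE mice, against 8.67, 8.63 and 7.18 in wild-type mice. All K19-C2mE arrays were above the wild-type arrays, while 4 of the 5 K19-Wnt1/C2mE arrays were below the K19-Wnt1 arrays. The interaction of −4.28 ± 0.89 (adjusted p = 0.022) was the most negative among called genes, and it was lost without wild-type replicate 1 or 3 or K19-C2mE replicate 1 (−4.53 to −3.79) and with the Y-linked level in the model (−4.00, adjusted p = 0.055).

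Fabp2, the intestinal fatty acid-binding protein, was at 5.83, 6.32, 6.44, 6.31 and 6.56 in K19-Wnt1/C2mE mice, against 10.17, 9.75, 8.78, 8.56 and 8.33 in K19-Wnt1 mice. It was at 8.63, 8.69 and 8.93 in K19-C2mE mice, against 8.58, 8.71 and 8.89 in wild-type mice. The K19-C2mE and wild-type arrays overlapped, and the K19-Wnt1/C2mE arrays lay apart. The interaction was −2.85 ± 0.60 (adjusted p = 0.0229), which did not pass without any 1 of the wild-type arrays or of K19-C2mE replicates 1 and 3 (−2.94 to −2.76), nor with the Y-linked (−2.61, adjusted p = 0.0588) or the squamous level in the model (−2.66, adjusted p = 0.0881).

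Chpt1, which makes phosphatidylcholine, was at 8.83, 9.09, 9.13, 8.87 and 8.86 in K19-Wnt1/C2mE mice, against 10.96, 11.02, 11.08, 10.95 and 11.14 in K19-Wnt1 mice. K19-C2mE mice had 10.77, 10.41 and 10.55, against 10.94, 11.14 and 11.04 in wild-type mice. The 2 C2mE genotypes were both below their controls, by −2.07 beside Wnt1 and by −0.46 without it, and the interaction was −1.61 ± 0.19 (adjusted p = 0.000317). Lypd8, a secreted protein that keeps flagellated bacteria off the gut epithelium, was at 12.92, 13.13, 12.89, 12.64 and 13.06 in K19-Wnt1/C2mE mice, against 13.92, 14.05, 13.57, 13.63 and 13.56 in K19-Wnt1 mice. It was at 14.36, 14.32 and 14.18 in K19-C2mE mice, against 13.74, 13.58 and 13.67 in wild-type mice. The sign of its C2mE difference turned with Wnt1, −0.82 beside it and 0.62 without it, for an interaction of −1.44 ± 0.16 (adjusted p = 0.000317). Both genes passed without each array, and both passed beside Nog, where the difference was −1.73 for Chpt1 and −1.30 for Lypd8.

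Other lower genes were Epop, a partner of Polycomb complexes (−2.82), Psapl1, a prosaposin relative (−2.50), Slc5a5, the iodide transporter (−2.23), and 2 detoxifying enzymes, Gsta2 (−2.18) and Aldh3a1 (−2.13). The calls of Epop, Psapl1, Slc5a5 and Aldh3a1 were lost without 9 to 13 of the arrays, and that of Gsta2 without 5.

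Among gland cell markers 10.5% of parietal, 12.5% of surface mucous and 4.55% of endocrine genes passed, against 1.47% of all genes. The parietal list had array medians of 5.89 to 7.60 in K19-Wnt1/C2mE, 11.05 to 11.63 in K19-Wnt1, 7.14 to 9.03 in K19-C2mE and 11.28 to 11.42 in wild-type mice. Among 19 parietal cell genes Aqp4, a water channel, passed as lower (−1.97, adjusted p = 0.0473) and Kcnq1, a potassium channel, as higher (0.77, adjusted p = 0.0404), with a list median of −0.33. Kcnq1 fell with C2mE in both settings, and its fall was smaller beside Wnt1. The 12 chief cell genes had a median of −1.20 with no call. Of 16 surface mucous cell genes, Capn8, a stomach calpain (−1.40), and Fut2, a fucosyltransferase (−0.59), passed as lower, with a list median of −0.25. Muc5ac, a surface mucin, was at 7.98, 10.38, 12.34, 7.40 and 8.02 in K19-Wnt1/C2mE mice, against 13.86, 13.88, 14.14, 13.81 and 14.23 in K19-Wnt1 mice. With 13.56, 11.83 and 13.34 in K19-C2mE mice, against 13.56, 13.86 and 13.76 in wild-type mice, its interaction was −3.94 ± 1.24 (adjusted p = 0.134), which did not pass, with a wide spread among the compound mice. Among 22 endocrine genes the prohormone processing enzyme Cpe passed (−1.65, adjusted p = 0.0487), while its second probe set gave 0.05, and the median was −0.58. The calls of Aqp4, Kcnq1, Capn8, Fut2 and Cpe were lost without 13 or 14 of the arrays.

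The squamous list had a median interaction of −1.58 with 42 of 43 genes negative, yet only Trp63, the basal cell factor of squamous epithelium (−0.89, adjusted p = 0.0351), passed, a share of 2.33%, and it was lost without 7 of the arrays. The squamous level as a covariate left 87 of all genes called, of which 76 were among the 267, and the Y-linked covariate left 165, of which 151 were among them. Ngfr, a neurotrophin receptor found in nerves and basal epithelium, was lower (−0.94, adjusted p = 0.0108, lost without wild-type replicate 1). Its dimmer probe sets gave −0.11 and −0.06.

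The lists of immune and stromal cells gave no call, with medians of 0.12 for macrophages, 0.14 for neutrophils, 0.06 for B cells and plasma cells, 0.03 for T cells and natural killer cells, −0.53 for mast cells, 0.34 for endothelium, −0.05 for fibroblasts, −0.18 for smooth muscle and −0.18 for adipocytes. In the list of enteric neurons and glia Ngfr and Ret passed (8% of 25 genes), with a median of 0.04. The lists of inflammatory response (0.17), wound healing (0.12), proliferation (−0.15), tight junctions (0.03), prostaglandin genes (−0.12) and mucous neck glands (0.23) held no called gene either. Pancreatic acinar (−0.13), red blood cell (0.13) and sex-linked genes (−1.99) gave none. Over all genes 1.47% passed, so no call in these lists of 4 to 63 measured genes is near that share. Among the remaining lists, intestinal epithelium held Fabp2, oxidative metabolism held Sdha, a subunit of succinate dehydrogenase (0.42), and the secretory pathway held Ero1a, an oxidase of protein folding (−1.26). Sdha fell with C2mE in both settings, less so beside Wnt1. The call of Sdha was lost without 11 of the arrays and that of Ero1a without any 1 of the wild-type arrays. The medians of these 3 lists were −0.05, −0.05 and −0.03, and the shares called were 3.57%, 2.5% and 2.63%.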

How the data were processed

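RNA of the glandular stomach was hybridised to Affymetrix mouse whole-genome arrays, 1 array per mouse. The authors normalised the arrays by RMA with Affymetrix Power Tools in Rosetta Resolver, whose versions are not given in the sources used here, and deposited a linear intensity per probe set. They also deposited a table of log10 ratios of the same arrays, which was used as an alternative. Every array column was used (0 left out), and the number of arrays limits the precision.

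Intensities were taken to log2 and fitted with limma 3.58.1 in R 4.3.3, with 1 coefficient for each of 6 genotypes over all 21 arrays and 15 residual degrees of freedom. Of 45037 probe sets, 34945 had 1 gene, 932 several and 9160 none in the platform annotation, and symbols were updated through RefSeq for 34741. Each of 18193 genes was represented by its brightest probe set. P-values were adjusted by Benjamini-Hochberg over all genes, with a threshold of 0.05. The fit was tested on simulated data.

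Named genes were the 15 largest called interactions in each direction, the 5 smallest p in each direction, up to 3 called members of each of 32 lists, and 15 genes taken from those the study names, together with interferon system genes chosen after their values were seen. Members and lists were chosen with earlier results of these data known. Nothing states that mice of a genotype came from separate litters, so p-values measure the spread between these mice. Alternatives covered the arrays fitted, normalization, dim probe sets, variance moderation, linear scale, replicate number, and, chosen after seeing the data, the Y-linked level within strata, among others. Figures were drawn with matplotlib 3.10.9.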

Additional observations from a re-analysis of the deposited data

Results flagged for a closer look

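The interaction itself is a difference between groups, and 267 genes passed it. The C2mE response beside Wnt1 also differed from that beside Nog, in 891 genes, and these contrasts share the K19-Wnt1/C2mE and K19-Wnt1 arrays.

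Single mice far from their group were sought with Dixon's test in the groups of 5 for the genes named, which gave 11 cases in 156 groups, and chance gives about 1 in 20. In K19-Wnt1/C2mE mice, the highest value was 5.75 for Oas3 in replicate 3 (next 5.44), 9.67 for Prr18 in replicate 4 (next 8.92) and 10.06 for Tgif1 in replicate 1 (next 9.61). In the same genotype the lowest value was 7.61 for Parp12 in replicate 1 (next 8.03), 3.67 for Ifit2 in replicate 2 (next 4.64), 8.41 for Tspan12 in replicate 3 (next 9.07) and 6.53 for Ret in replicate 3 (next 7.07). In K19-Wnt1 mice, Ifit1 was lowest in replicate 6 at 7.13 (next 8.41), Adar was lowest in replicate 1 at 9.87 (next 10.03), Gbp2 was highest in replicate 1 at 9.97 (next 8.40) and Parp12 was highest in replicate 5 at 9.21 (next 8.99).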

How the results depend on the processing

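Centring, quantile normalization, a variance trend, the log10 ratio table, the mean of a gene's probe sets and the filter on dim probe sets gave 247 to 308 genes, against 267. Only the 16 arrays gave 422 genes (283 lower), 537 probe sets (184 higher, 353 lower) and 28 interferon genes, against 13. Without variance moderation 160 genes (63 higher, 97 lower) and 139 probe sets (53 and 86) passed, and at an unadjusted p under 0.001, 204 probe sets were higher. On the linear scale 98 genes and 107 probe sets were lower, with 7 interferon genes, the share of higher genes was 48.4% against 35.6%, and Aqp4 reversed to 3.79 intensity units. The Y-linked covariate gave 165 genes (50 higher) and 175 probe sets (55 higher, 120 lower). Within high Y-linked arrays 4 genes and 6 probe sets passed (0 higher, 1 interferon gene), and within low ones 1 gene and 2 probe sets (0 higher, 0 interferon genes), against 1532 and 1171 genes at an unadjusted p under 0.05. The squamous covariate gave 87 genes (39 higher, 48 lower), 65 probe sets (20 and 45) and 7 interferon genes. A size of at least 1 left 110 genes (25 and 85) and 142 probe sets (34 and 108). The causes were not tested.

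The meaning of the replicate numbers is not stated. Across genotypes, 17 same-numbered pairs of mice correlated at −0.35 to 0.18 in their deviations from the group mean, with 5 over 0.1. The 77 differently numbered pairs correlated at −0.32 to 0.30, with 16 over 0.1. Such overlapping ranges from small groups cannot decide whether the numbers mark a pairing or a batch. With the number as a replicate block 134 genes (44 higher, 90 lower) and 207 probe sets (127 lower) passed, 116 of them among the 267 genes, and 13 interferon genes, and of the TGF-beta and BMP list only 1 gene, lower.

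Leaving out each array gave 71 to 460 genes (21 to 136 higher, 47 to 324 lower), 90 to 633 probe sets (25 to 212 higher, 65 to 421 lower) and 7 to 14 interferon genes, and 292 to 1374 genes beside Nog. Ifit2, which did not pass, turned to 0.055 within high Y-linked arrays. Of 72 called genes named, 22 kept their call without each array. The interaction of Ptgs2, near 0, was −0.054 within low Y-linked arrays and −0.10 to 0.31 with arrays left out, negative without wild-type replicates 1 (−0.03) and 2 (−0.03), K19-Wnt1 replicate 6 (−0.02), K19-C2mE replicates 2 (−0.08) and 3 (−0.03) and K19-Wnt1/C2mE replicate 5 (−0.10). With 3 wild-type and 3 K19-C2mE arrays, each weighs heavily.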
